A study of Mus musculus with 43 samples.

Results

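The 9 genes described here carry retinol, store it and turn it into retinoic acid: Stra6, Rbp4, Ttr, Lrat, Rdh10, Dhrs3, Aldh1a1, Aldh1a2 and Aldh1a3. They were chosen by name from the 54532 genes of the deposited expression table, with their levels in the 3 female proximal tubule columns in view, so those levels are given as a description and carry no test. All 9 were found there, and the IDs of all 9 occur in the reference list of mouse gene names. Segments were compared for the 7 that reached 1 TPM somewhere, which leaves out Aldh1a3 and Rbp4.

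The proximal tubule is the stretch of nephron that follows the glomerulus, and it runs through 3 successive segments, S1, S2 and S3. The study dissected these segments by hand from kidneys of C57BL/6 mice of both sexes, 6 to 8 weeks of age, with no treatment or engineered allele named, taking 2 to 5 tubules per sample. Its labels list 19 RNA-seq libraries, all female, with 6 of S1, 6 of S2 and 7 of S3, and 24 ATAC-seq libraries of both sexes, which were not analysed here. Gene expression was deposited as 1 TPM value per gene and segment (TPM is transcript abundance per length, scaled to a fixed total). The values are therefore the authors' own without replicate spread, no difference below has a replicate check or a p-value, and the read depth behind them is unknown. If the numbers in the titles are animals, which the labels do not say, S1 was taken from numbers 4 and 5, S2 from 1, 2 and 3, while S3 drew on 2, 3, 4 and 5. S1 and S2 would then share no animal.

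Markers of S1, S2 and S3 each had their highest sum in the segment of that label, though those of S3 were also high in S2. Of 6 proximal tubule markers, none was listed at 0 in any segment, but 3 differed at least 2-fold between S1 and S2: Slc34a1 was at 10241, 2227 and 17.0 TPM along the tubule, Gatm at 4072, 186.6 and 1.0, and Aqp1 at 33.0, 382.7 and 561. The sums of the 6 were 14648, 3203 and 1034 TPM. The summed level of the 4 S1 markers was 4462 TPM in S1 against 22.2 in S2 and 16.4 in S3. The 4 S3 markers summed to 3.3, 2550 and 4272 TPM. All 4 were highest in S3, but none differed 2-fold between S2 and S3 once 1 TPM was added to each value. S2 markers summed to 305.5, 793 and 2.8 TPM over 3 genes, and 1 of them, Slc22a8, was also high in S1 (297 TPM). Fewer cells of a type and less RNA per cell cannot be told apart in such pooled tubules.

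Retinol, the circulating form of vitamin A, travels in plasma on retinol-binding protein (Rbp4), which is itself bound to transthyretin (Ttr). Free retinol-binding protein is filtered at the glomerulus and taken back by proximal tubule cells through the endocytic receptors megalin and cubilin. Stra6 encodes a membrane receptor that moves retinol between retinol-binding protein and the cell. Inside cells, Lrat stores retinol as esters, Rdh10 oxidises it to retinaldehyde, Dhrs3 reduces retinaldehyde back to retinol, and the Aldh1a enzymes oxidise retinaldehyde to retinoic acid, the ligand of the nuclear receptors Rara, Rarb and Rarg.

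A promoter sequence from RefSeq (GRCm38.p6) was at hand for 6 of the 9 genes. Shown here are the 250 bases before the first listed start of 4 of them, chosen because the levels of the 4 genes run in different ways: Stra6 was highest in S1, Lrat and Aldh1a1 in S2, and Aldh1a2 in S3. Each is written 5′ to 3′ on the strand of the gene. Capitals mark GGTCA (the core of the half-site that retinoic acid receptors and many other nuclear receptors bind), TATAA and CCAAT, each searched on both strands.

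Stra6 (chr9:58128838-58129087, plus strand): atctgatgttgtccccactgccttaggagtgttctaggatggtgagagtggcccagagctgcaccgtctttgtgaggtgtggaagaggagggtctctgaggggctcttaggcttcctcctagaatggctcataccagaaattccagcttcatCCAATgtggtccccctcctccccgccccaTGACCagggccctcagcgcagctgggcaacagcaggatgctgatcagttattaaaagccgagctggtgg

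Lrat (chr3:82903975-82904224, minus strand): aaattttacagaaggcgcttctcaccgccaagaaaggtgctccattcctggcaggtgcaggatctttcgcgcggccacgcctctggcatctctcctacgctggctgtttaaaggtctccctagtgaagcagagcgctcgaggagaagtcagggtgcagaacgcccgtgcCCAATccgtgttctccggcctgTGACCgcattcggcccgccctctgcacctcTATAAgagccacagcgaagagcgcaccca

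Aldh1a1 (chr19:20492333-20492582, plus strand): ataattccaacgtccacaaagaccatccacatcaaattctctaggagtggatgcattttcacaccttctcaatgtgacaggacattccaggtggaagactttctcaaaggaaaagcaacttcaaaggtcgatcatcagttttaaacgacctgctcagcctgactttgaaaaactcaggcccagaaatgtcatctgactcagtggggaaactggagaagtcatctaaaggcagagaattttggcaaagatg

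Aldh1a2 (chr9:71215539-71215788, plus strand): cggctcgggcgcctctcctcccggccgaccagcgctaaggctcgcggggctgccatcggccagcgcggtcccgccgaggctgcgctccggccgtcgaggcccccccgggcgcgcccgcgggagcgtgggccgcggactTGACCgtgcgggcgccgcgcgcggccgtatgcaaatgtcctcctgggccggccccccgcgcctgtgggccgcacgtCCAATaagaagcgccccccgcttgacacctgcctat

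The windows differed most in base composition. Aldh1a2 had 77.6% G and C and 40 CpG pairs in its 250 bases, and Lrat 59.2% and 18. Stra6 had 56.4% and 4 CpG pairs, and Aldh1a1 42.8% and 3, against medians of 52% and 6 over the windows of 27025 genes. GGTCA lay once each in the windows of Stra6 (beginning 69 bases before the start), Lrat (59) and Aldh1a2 (112), each time on the reverse strand and so printed as TGACC. The Aldh1a1 window held no match to any motif searched. Across all windows, 34.9% held GGTCA, 34.5% CCAAT and 23.5% TATAA. Matches to CCAAT were found in Stra6 (98 bases before the start), Lrat (81) and Aldh1a2 (36), and TATAA in Lrat alone of these 4 (29 bases before the start). The longer half-site AGGTCA, which contains GGTCA and is held by 13.8% of windows, was in none of the 4. Neither was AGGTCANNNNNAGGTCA, an exact spelling of the direct repeat spaced by 5 bases known as the classic retinoic acid response element. That spelling was held by 2 of the 27025 windows, and looser spellings of the repeat were not searched. These letters say nothing about binding, and the Stra6 window lies inside the annotated span of the gene (chromosome 9, 58063793 to 58154004), which has 4 listed starts. Which start the tubule uses is not known from TPM values.

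Stra6, the retinol-binding protein receptor, measured 58.3 TPM in S1 against 0.7 in S2 and 0.2 in S3. It was thus high in S1 only among the 3 segments, above 87.2% of the 16053 genes compared there, and above 3.75% of them in S2 and 4.50% in S3. On the log2(TPM + 1) scale, used for all differences here because it damps those of very low genes, S1 stood 5.12 above S2 and 5.63 above S3. S2 and S3 differed by 0.50, less than the 2-fold (a difference of 1) that counts here as higher or lower.

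Ttr, which encodes transthyretin, ran in the same order. Its level was 184.7 TPM in S1 against 22.6 in S2 and 5.6 in S3. Unlike Stra6 it kept a sizeable level in S2, where it exceeded 74.1% of genes. S1 was 8.17-fold above S2 and 33.0-fold above S3, and S2 was 4.04-fold above S3. Those are log2 differences of 2.98, 4.81 and 1.84. Ttr was the most abundant of the 9 genes in S1, and Dhrs3 was in S2 and S3.

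Rbp4, the plasma carrier of retinol, was listed at 0 TPM in each of the 3 segments. It occupies bases 38116620 to 38125321 of chromosome 19 in GRCm38.p6. A listed 0 was shared by 10.5% of the 20932 rows whose symbol RefSeq gives as protein-coding, and by none of 79 cytosolic ribosomal protein genes. Whether any read fell on the gene is not known from a value rounded to 1 decimal.

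**Figure D1:**
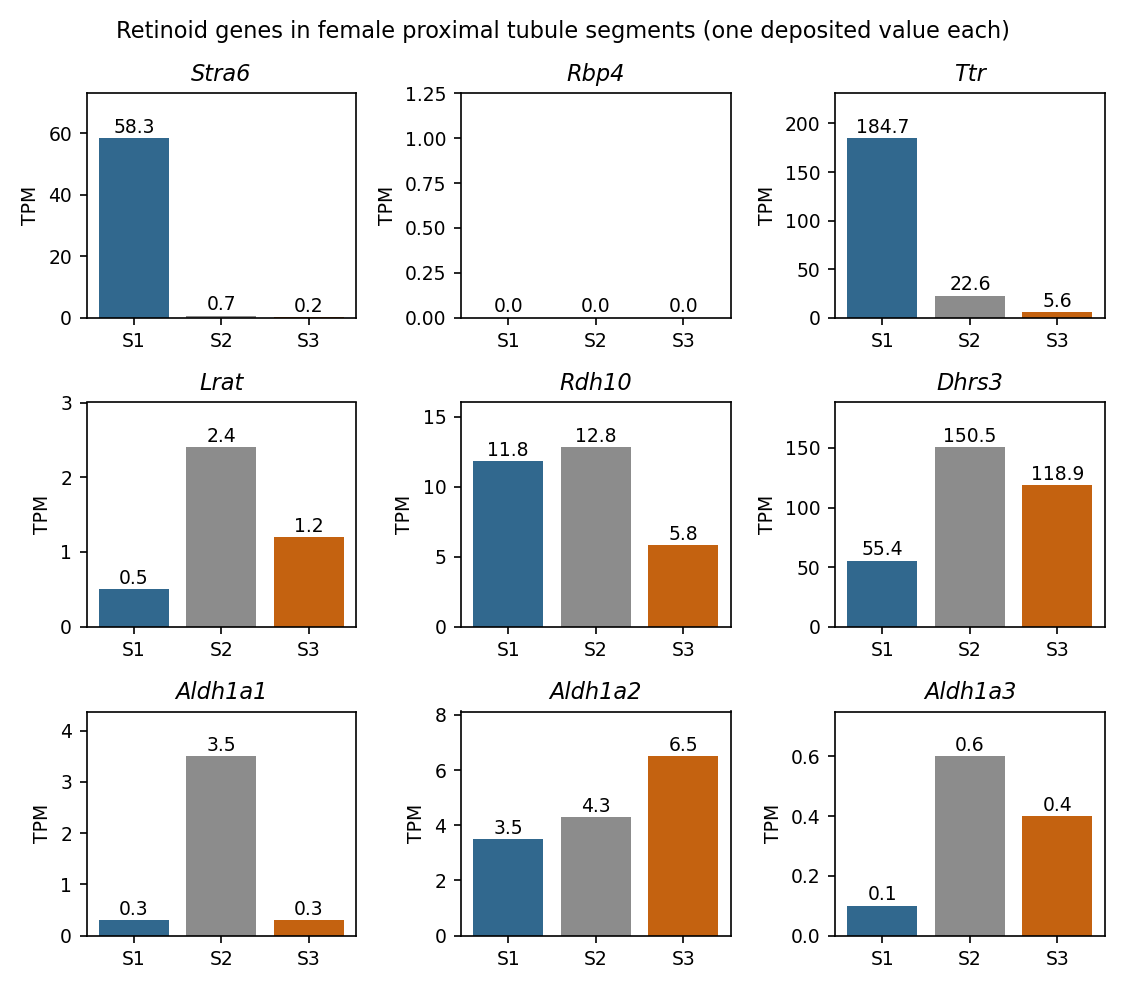
Bars give the deposited TPM of each of the 9 genes in S1, S2 and S3, 1 value per segment with no replicate spread, each panel with its own axis from 0. Stra6 (58.3 TPM) and Ttr (184.7 TPM) are highest in S1, Dhrs3 (150.5 TPM) and Aldh1a1 (3.5 TPM) in S2, and Aldh1a2 (6.5 TPM) in S3, while Rbp4 is at 0 throughout.

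The relative of Stra6 ran the other way. Stra6l, a Stra6-like membrane protein described as a second receptor for retinol-binding protein, measured 0.4 TPM in S1 but 22.8 in S2 and 30.2 in S3. It stood 4.09 lower in S1 than in S2 on the log2 scale, whereas Stra6 stood 5.12 higher. The 2 receptor genes together summed to 58.7, 23.5 and 30.4 TPM. The endocytic receptors differed less between segments: Lrp2 measured 143, 228 and 259 TPM from S1 to S3, and Cubn, the cubilin gene, at 46.0, 61.8 and 59.7.

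**Figure D2:**
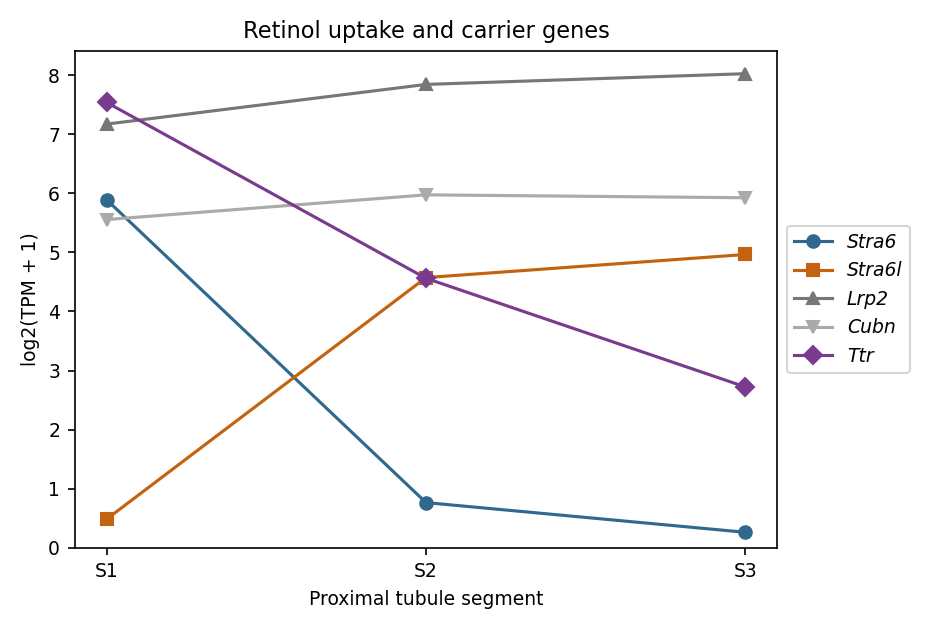
Lines join the log2(TPM + 1) values of Stra6, Stra6l, Lrp2, Cubn and Ttr in the 3 segments, 1 deposited value each. Stra6 goes from 58.3 TPM in S1 to 0.2 in S3 while Stra6l goes from 0.4 to 30.2, and the lines of Lrp2 and Cubn stay within 1 log2 unit.

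Lrat, the enzyme that esterifies retinol for storage, was low everywhere. It measured 0.5 TPM in S1 against 2.4 in S2 and 1.2 in S3, and no segment put it above more than 28.9% of genes. S1 was 1.18 lower than S2 on the log2 scale, which became 0.65 lower under quantile normalization and 0.43 lower with a pseudocount of 5, both short of 2-fold. S2 and S3 differed 2-fold in plain TPM but by 0.63 with the pseudocount of 1.

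Rdh10, the retinol dehydrogenase that makes retinaldehyde, measured 11.8 TPM in S1 and 12.8 in S2 but 5.8 in S3. S1 and S2 were close, 0.11 apart on the log2 scale, and S3 was the lowest. S2 stood 1.02 above S3, just past the threshold, and 0.97 under median-of-ratios scaling or 0.88 under quantile normalization, just short of it, and 0.72 with a pseudocount of 5. S1 stood 0.91 above S3, which is 2.03-fold in plain TPM.

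Dhrs3, the retinaldehyde reductase that works against Rdh10, measured 55.4 TPM in S1 against 150.5 in S2 and 118.9 in S3. It was lowest in S1, where it still exceeded 86.6% of genes. S2 was 2.72-fold above S1 and S3 2.15-fold, log2 differences of -1.43 for S1 minus S2 and -1.09 for S1 minus S3. S2 and S3 differed by 0.34. As TPM is per length, the pair can be set side by side: Dhrs3 was 4.69 times Rdh10 in S1, 11.8 times in S2 and 20.5 times in S3.

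The 3 Aldh1a genes, whose enzymes make retinoic acid from retinaldehyde, were all below 7 TPM. Aldh1a2, the main source of retinoic acid in the embryo, measured 3.5 TPM in S1, then 4.3 in S2 and 6.5 in S3. It did not differ 2-fold between any 2 segments, with log2 differences of -0.24 (S1 minus S2), -0.74 (S1 minus S3) and -0.50 (S2 minus S3). Under quantile normalization S1 stood 0.12 above S2, so the order of these neighbours depends on the scaling.

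Aldh1a1 measured 0.3 TPM in S1, then 3.5 in S2 and 0.3 in S3. It was highest in S2, by 1.79 on the log2 scale over both others, and by 0.68, short of 2-fold, with a pseudocount of 5. Aldh1a7, a near-identical copy with which reads may be shared, also had its highest level in S2, with 0.4, 2.0 and 0.1 TPM, so the split between the 2 genes is uncertain. Aldh1a3 was at 0.1, 0.6 and 0.4 TPM, under 1 TPM in each segment. The 3 genes summed to 3.9, 8.4 and 7.2 TPM along the tubule, of which Aldh1a2 made up 89.7%, 51.2% and 90.3%.

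Between S1 and S2, 2 of the 7 members compared were at least 2-fold higher in S1 (Stra6 and Ttr), against 6.62% of all 16053 genes. The 3 that were lower in S1 were Lrat, Dhrs3 and Aldh1a1, against 17.7% of all genes. From S1 to S3, Stra6 and Ttr were again higher in S1 (10.5% of all genes) and Dhrs3 lower (13.1% of all genes). From S2 to S3, Ttr, Rdh10 and Aldh1a1 were higher in S2 (8.74% of all genes), and no member was lower (2.24% of all genes). The median log2 difference over the 7 was -0.24 (S1 minus S2), 0 (S1 minus S3) and 0.63 (S2 minus S3), beside -0.18, -0.01 and 0.12 over all genes. Since the members were picked with these columns known, the shares stand as background and nothing is read from them. Scaling mattered for the background: of all genes past the threshold between S1 and S2, 27.2% were higher in S1, and 43.4% after quantile normalization, which moved the median of all genes by 0.20. For S2 against S3 the share was 79.6%, and 64.0% after it, with a shift of -0.15.

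**Figure D3:**
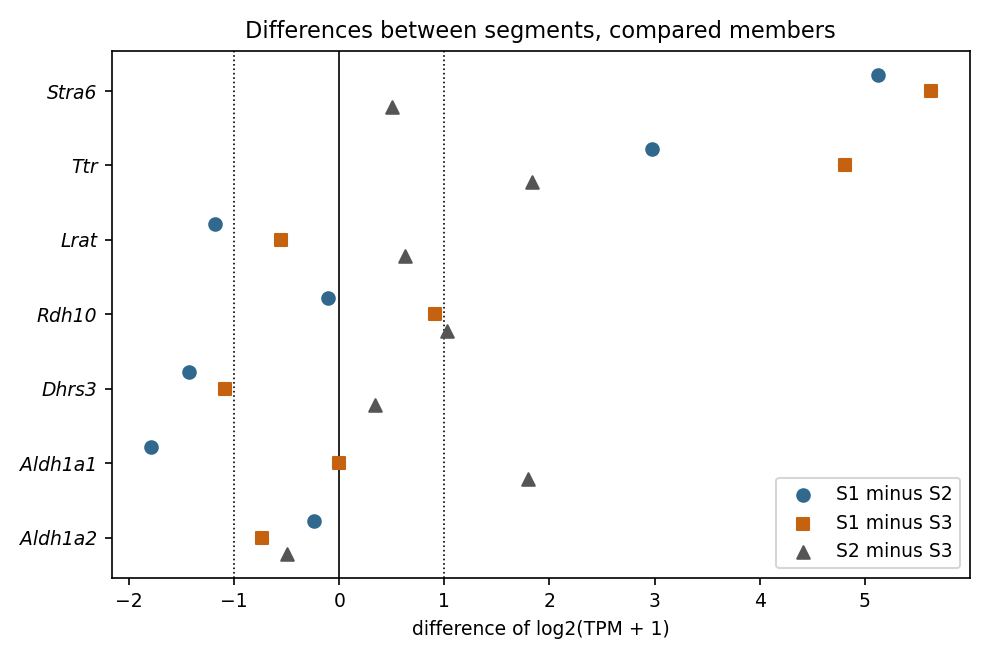
Points give the difference of log2(TPM + 1) between segments for the 7 members compared, with dotted lines at -1 and 1, the 2-fold threshold. Stra6 and Ttr lie far to the right for S1 minus S2 (5.12 and 2.98) and S1 minus S3 (5.63 and 4.81), Dhrs3 lies left of -1 in both, and Aldh1a2 stays between the lines.

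Markers of other cell types also differed between segments, with most of them highest in S2. All 7 endothelial markers were at least 2-fold higher in S2 than in S1 and than in S3, and their summed level was 30.5 TPM in S1 against 319.9 in S2 and 100.9 in S3. The 8 stromal and mural markers summed to 2.2, 20.0 and 1.9 TPM, with 4 of the 5 compared at least 2-fold higher in S2 than in either neighbour. Of these 8, Lum was listed at 0 in S1 and S3. The 6 immune markers summed to 5.4, 84.1 and 55.1 TPM, and none was at 0. Csf1r alone gave 46.9 of the 55.1 TPM in S3, and the other 5 summed to 4.9, 52.1 and 8.2. Of the 7 members compared, 4 also had their highest level in S2, as did 37.2% of all genes compared. These were Dhrs3, Rdh10 (12.8 TPM beside 11.8 in S1), Aldh1a1 (3.5 TPM) and Lrat (2.4 TPM). Aldh1a1 and Lrat lay below all 7 endothelial markers in S2, the lowest of which was Cdh5 at 4.0 TPM. The 5 stromal and mural markers compared were at 1.1 to 5.1 TPM there. The part of other cells in these levels was not tested.

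In S1, where Stra6 and Ttr were highest, the podocyte gene Nphs1 was at 0.1 TPM, and the 6 podocyte markers summed to 12.9 TPM, of which Magi2 made up 10.5. Across segments those 6 summed to 12.9, 19.2 and 6.6 TPM. Of 8 collecting duct markers, 3 were listed at 0 in S1, and Aqp3 alone gave 28.3 of their summed 30.0 TPM there, against sums of 7.2 in S2 and 0.7 in S3. The mesothelial sum never exceeded 1.1 TPM. Stra6l, highest in S3, ran in the order of the 4 S3 markers, which summed to 3.3, 2550 and 4272 TPM. The sum of the 4 thick ascending limb markers had that order too, at 3.9, 40.4 and 48.7 TPM, but not each gene of the list did. In that list Umod was at 0.2, 21.1 and 29.1 TPM and Egf at 3.3, 19.0 and 18.5. Slc12a1 stayed at or below 1.0 and Cldn16 was listed at 0 in S1 and S2. For the 4 distal tubule markers the sums rose as well, at 1.4, 2.8 and 3.5 TPM, of which Slc12a3 gave 0.7, 2.0 and 3.0. The 4 parietal epithelium markers also had their highest levels in S3, with sums of 112.9, 143.5 and 278.9 TPM, of which Cp gave 0.5, 15.9 and 95.8. The part of such cells in the Stra6l level was not tested either.

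**Figure D4:**
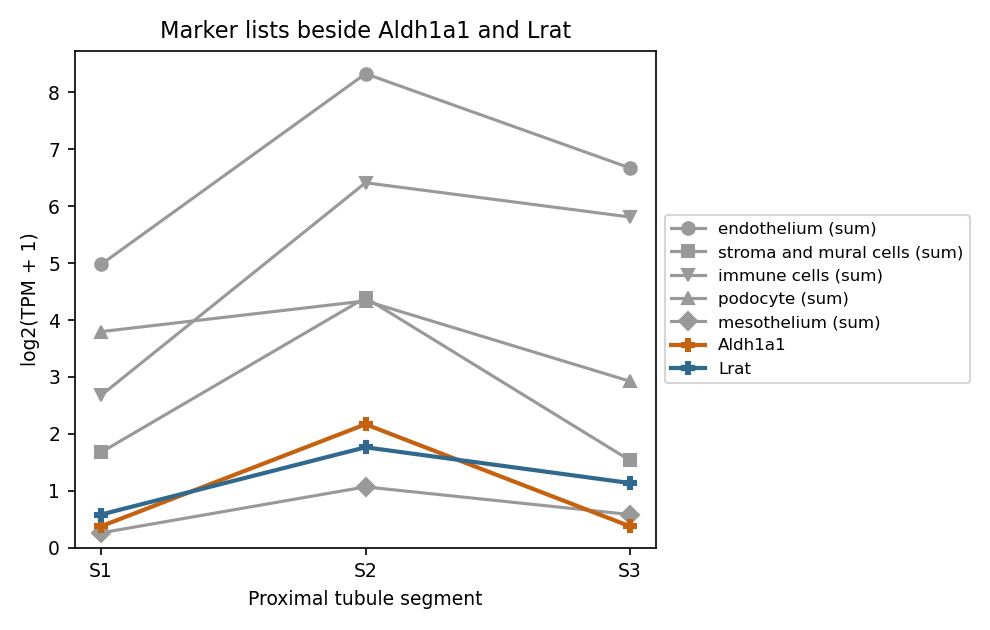
Lines join log2 values of Aldh1a1 and Lrat (coloured) and of the summed TPM of 5 marker lists (grey) plus 1, by segment. Endothelial (319.9 TPM), stromal (20.0 TPM) and immune (84.1 TPM) sums peak in S2, as do Aldh1a1 (3.5 TPM) and Lrat (2.4 TPM).

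Beyond the 9 members, 67 other genes of retinoid handling were listed by function, of which 47 reached 1 TPM and were compared. Between S1 and S2, 7 were at least 2-fold higher in S1, 14 lower and 26 neither, where 6.62% of all genes were higher and 17.7% lower. The median difference was -0.33, beside -0.18 over all genes. S1 against S3 gave 11 higher, 11 lower and 25 neither (all genes: 10.5% higher, 13.1% lower), with a median of 0.27 beside -0.01. S2 against S3 gave 6 higher, 1 lower and 40 neither (all genes: 8.74% higher, 2.24% lower), with a median of 0.24 beside 0.12. The same shares of all genes stand behind the counts of each list that follows. Over the 3 contrasts these are 50 calls, 7 of which fell short of 2-fold under at least 1 of 3 other scalings, and none changed sign. A pseudocount of 5 ended 17 of the 50, all of genes at low levels.

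Among 10 carriers and uptake genes, none was at least 2-fold higher in S1, and 3 of the 6 compared were lower there than in both S2 and S3. Besides Stra6l these were Fabp5, a fatty acid-binding protein that also delivers retinoic acid to the nucleus (0.9, 37.1 and 31.5 TPM from S1 to S3), and Scarb1, a scavenger receptor that takes up lipids and carotenoids (1.2, 14.1 and 7.7 TPM). The cellular carriers Rbp2, Rbp7, Crabp1 and Crabp2 did not reach 1 TPM in any segment.

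Other enzymes that interconvert retinol and retinaldehyde were often more abundant than Rdh10. Of 19, 12 were compared, with 2 above and 2 below the threshold for S1 against S2, and 3 on either side for S1 against S3. Rdh5, a retinol dehydrogenase best known from the retinal pigment epithelium, was at 22.6, 94.9 and 119.6 TPM and Rdh16 at 54.9, 132.7 and 102.1, both lowest in S1, as Dhrs3 was. Adh1, an alcohol dehydrogenase that oxidises retinol, was at 91.8, 144.7 and 14.1 TPM. Akr1b10, an aldo-keto reductase that reduces retinaldehyde, was at 79.8, 37.3 and 25.8 TPM, 1.08 higher in S1 than in S2 on the log2 scale but 0.98 once the mitochondrially encoded genes, Gpx3 and Kap were taken out of the total. The reductases Dhrs4 (191, 241 and 157.9 TPM) and Rdh14 (58.1, 41.9 and 40.2) and the broad alcohol dehydrogenase Adh5 (234, 146 and 149) did not differ 2-fold between segments, nor did Rdh11 (11.1, 6.3 and 6.7).

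One further aldehyde dehydrogenase far exceeded the Aldh1a genes. Aldh8a1, first described as acting on retinaldehyde and also placed in tryptophan breakdown, measured 385, 463 and 539 TPM from S1 to S3, without a 2-fold difference. Aldh1b1, a mitochondrial relative, was at 0.6, 6.9 and 12.4 TPM. Of the 4 genes compared in this list, 3 were lower in S1 than in S2 (Aldh1b1, Aldh1a7 and Cyp1b1, the last 2 named after their values were seen). The Aldh1a7 difference of -1.10 became -0.58 under quantile normalization. Cyp1b1 was at 0.2, 2.7 and 0.9 TPM.

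Genes of carotenoid cleavage, retinyl ester storage and hydrolysis, and retinol saturation divided by segment. Of 11 compared, S1 exceeded S2 at least 2-fold in 2, the carboxylesterase Ces1d and the carotenoid oxygenase Bco1, and was as far below it in 4 (Lpl, Ces1f, Mgll and Retsat). Bco1, named after its values were seen, was at 3.4, 1.1 and 0.2 TPM, and its S1 minus S2 difference of 1.07 became 0.46 with a pseudocount of 5. Lpl, lipoprotein lipase, which also frees retinol from circulating esters, was at 19.1, 765.6 and 1277 TPM. Mgll was at 19.2, 191.6 and 174 TPM. The carboxylesterases went in opposite orders, with Ces1d at 307, 145.9 and 16.9 TPM and Ces1f at 8.2, 198 and 423. For Ces1d the S1 minus S2 difference of 1.07 became 0.96 with the same genes taken out. For Ces1f the S2 minus S3 difference of -1.09 became -0.98 under quantile normalization. Retsat, which saturates retinol, was at 145.4, 296 and 240.7 TPM, lower in S1 than in S2 by 1.02 on the log2 scale. Dgat1, which can esterify retinol in the absence of Lrat, was at 49.2, 32.8 and 29.6 TPM, Dgat2 at 248, 165.9 and 144.8, and Pnpla2 at 85.6, 95.8 and 123.9, none of them 2-fold apart.

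**Figure D5:**
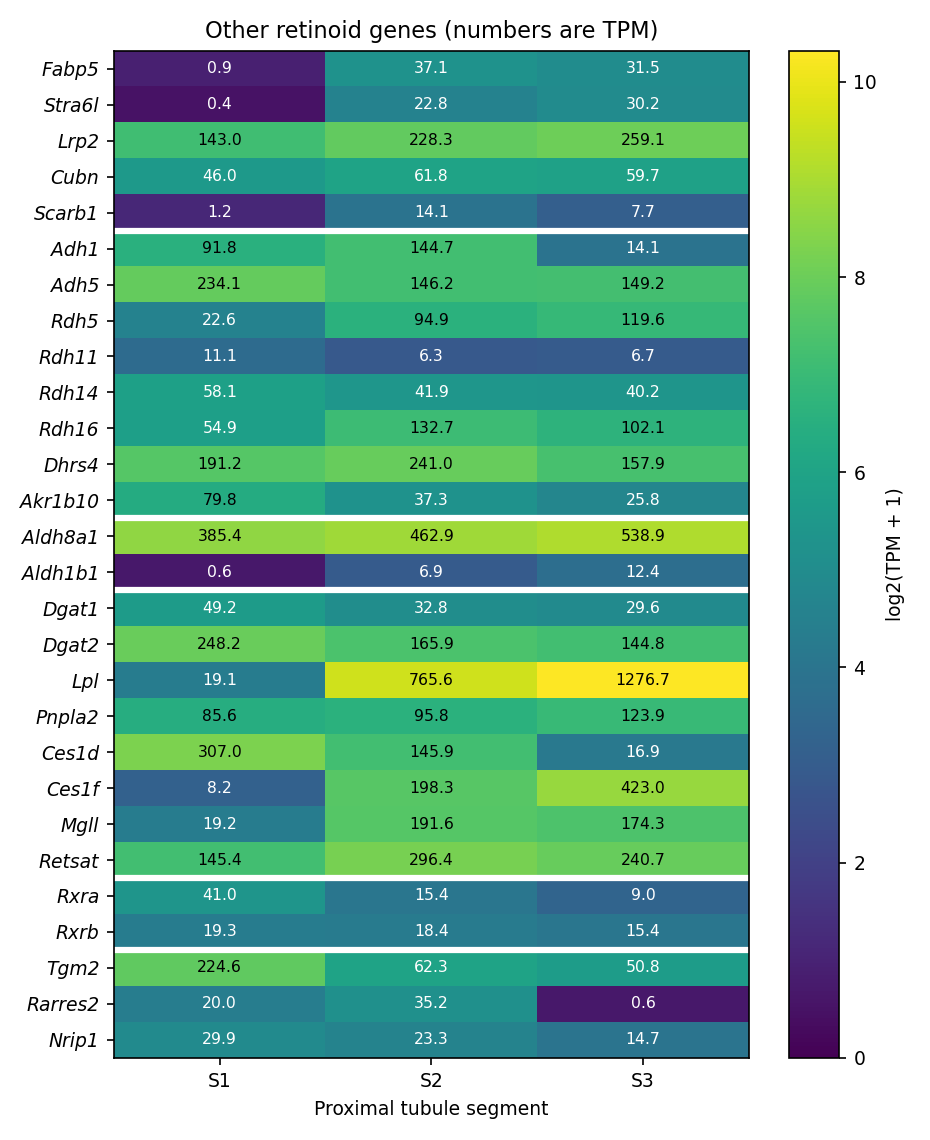
Colours give log2(TPM + 1) of the other retinoid genes named here that reached 10 TPM, or 5 TPM with a 2-fold range. TPM is printed in each cell, and genes are grouped by function from uptake at the top to response genes at the bottom. Aldh8a1 exceeds 385 TPM in each segment, Lpl goes from 19.1 TPM in S1 to 1277 in S3, and Rxra from 41.0 to 9.0.

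The Cyp26 enzymes, the main route of retinoic acid breakdown, were at 1 TPM or less. Cyp26a1 was at 0.1, 0.3 and 0.1 TPM, Cyp26b1 at 0.1, 1.0 and 0.1, and Cyp26c1 was listed at 0 throughout. Cyp2s1, a cytochrome P450 that can also metabolise retinoic acid, was at 2.9, 3.1 and 1.7 TPM. Of the 4 genes in that list, Cyp26b1 and Cyp2s1 were compared, and neither differed 2-fold.

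Of the 7 receptor genes, 5 had their highest level in S1, as did 36.4% of all genes compared. Rxra, the common partner of the retinoic acid receptors, was at 41.0, 15.4 and 9.0 TPM, 1.36 higher in S1 than in S2 on the log2 scale, while Rxrb was level at 19.3, 18.4 and 15.4. S1 exceeded S2 at least 2-fold in 2 of the 7, Rxra and Rxrg (4.2, 0.1 and 0 TPM), beside 6.62% of all genes, and was at least 2-fold below it in 2 (17.7% of all genes). S1 exceeded S3 as far in 3 (10.5% of all genes) and was below it as far in none. With a pseudocount of 5 the Rxrg differences of 2.24 for S1 minus S2 and 2.38 for S1 minus S3 became 0.85 and 0.88. Rxrg and the 2 lower genes, Rarg (0.4, 2.4 and 1.1 TPM) and Ppard (0.6, 2.8 and 1.5), are named after their values were seen. The S1 minus S2 differences of Rarg and Ppard, -1.28 and -1.25, became -0.79 and -0.71 under quantile normalization. Rara was at 6.4, 5.4 and 5.2 TPM and Rarb at 3.0, 2.6 and 0.8. The Rara, Rarb and Rarg levels summed to 9.8, 10.4 and 7.1 TPM, and those of the 3 Rxr genes to 64.5, 33.9 and 24.4.

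Genes known to respond to retinoic acid had no common order. Of 14, 8 were compared, and S1 exceeded S2 at least 2-fold in 1 and was as far below it in none, while S1 exceeded S3 in 3 and was below it in 1. Tgm2, tissue transglutaminase, was at 224.6, 62.3 and 50.8 TPM. Rarres2, which encodes the adipokine chemerin, was at 20.0, 35.2 and 0.6 TPM. Nrip1, a nuclear receptor corepressor, was at 29.9, 23.3 and 14.7 TPM. The list shares genes with those above, among them Rarb, Cyp26a1, Cyp26b1 and Crabp2.

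The genes most like each member over the 3 segments were found among 7258 genes of at least 10 TPM by the distance between their log2(TPM + 1) values, each centred on its own mean. With 3 values per gene this is a description. Nearest to Stra6 were Me3 (79.6, 1.0 and 0.5 TPM, distance 0.15), Slc6a19, a neutral amino acid transporter (distance 0.23), and Speg (distance 0.28), and 6 genes lay within a distance of 0.5. Nearest to Ttr were Slc16a1, a monocarboxylate transporter (32.4, 3.3 and 0.2 TPM, distance 0.014), Ugt1a1 (distance 0.17) and Gpx3 (distance 0.17), with 19 genes within 0.5. Rdh10 and Dhrs3 had commoner patterns, with 300 and 348 genes within 0.5. Nearest to Rdh10 were Pitpnc1, Aldh9a1 and Metrn, at distances of 0.043 to 0.095. Nearest to Dhrs3 were Fam161a, Klhdc8b and Chd6, at 0.069 to 0.078.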

How the data were processed

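RNA from microdissected tubules was made into cDNA with a low-input kit that marks no strand, per the labels' protocols, so reads of overlapping genes on opposite strands cannot be told apart. The authors deposited TPM values, 1 per gene and segment, rounded to 1 decimal. Per the submitters' processing notes the build was mm10, and cutadapt, STAR and RSEM were among the tools. How libraries were combined, and which annotation was used, is not stated in the notes used here. The columns sum to 999907 (S1), 999988 (S2) and 999911 (S3), and their depth is unknown. Another 5 value columns fit none of the labelled RNA-seq groups and were left aside.

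Genes reaching 1 TPM in any segment were compared as differences of log2(TPM + 1), and a difference of at least 1 (2-fold) was counted. No test was run. The code (Python 3.11.15, numpy 2.4.6, pandas 2.3.3) was tested on simulated data. Plain ratios appear only between values of 1 TPM or more. The members and lists were chosen with earlier results of these data known. Besides all members, other retinoid genes are named if they reached 10 TPM, or 5 TPM with a 2-fold range, and the 3 genes nearest to each member of at least 10 TPM and a 2-fold range. Several genes that miss this rule are named as well. Among them are Rara, Rarb, Cyp2s1, the Cyp26 genes and the cellular carriers below 1 TPM, besides those said to be named after their values were seen. Gm-number and Rik symbols were passed over. Some genes that the lists or this rule hold are not reported here. Promoter windows and coordinates come from RefSeq (GRCm38.p6, the assembly of mm10). Alternatives were other pseudocounts, filters, scalings and fold thresholds.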

Additional observations from a re-analysis of the deposited data

How the results depend on the processing

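No paired analysis was possible because the table holds 1 value per segment, and for the same reason no library could be left out. The main counts of members differing 2-fold were 5 for S1 against S2, 3 for S1 against S3 and 3 for S2 against S3. Of the other retinoid genes 21, 22 and 7 differed. A pseudocount of 0.1 gave 5 members for S1 against S3 and 16 other genes for S2 against S3. A pseudocount of 5 gave 3 members for S1 against S2, 1 for S2 against S3 and 14, 15 and 4 other genes in the 3 contrasts. The filter at 5 TPM gave 3 members for S1 against S2 and 4 other genes for S2 against S3, since fewer genes were tested. A 1.5-fold threshold gave 5 members for S1 against S3, with 37 other genes for S1 against S3 and 22 for S2 against S3. A 4-fold threshold left 2 members for S1 against S2 and 0 for S2 against S3, and 9, 13 and 3 other genes in the 3 contrasts. In all, 39 recomputed counts stayed within 1.5 times the main count and 15 moved further. Those with no filter on low values could not change. A gene below 1 TPM in each segment cannot differ 2-fold with a pseudocount of 1. Of 105 recomputed member differences, 7 fell below 2-fold (of Lrat, Rdh10 and Aldh1a1), 3 came to exceed it and 1, Aldh1a2 for S1 against S2, changed sign without being 2-fold. Stra6 and Ttr kept their 2-fold excess in S1 over S2 and S3, and Dhrs3 its deficit in S1, under each other pseudocount and scaling. Low genes (Lrat, Aldh1a1, Aldh1a3) rest on values near the rounding step, and their depth is unknown.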
